A study of Mus musculus with 8 samples.

Results

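Chronic restraint stress was compared with mock treatment in the brains of wild-type (WT) mice by RNA sequencing. The members were chosen by their titles and treatment labels: 4 of the series' 8 libraries, of which WT mock 1 and WT mock 2 came from mock-treated mice and WT stress 1 and WT stress 2 from restrained mice. All were brain RNA of mice perfused with saline buffer (PBS). None of these 4 libraries carries the cerebral amyloid angiopathy (CAA) condition of the other 4, whose 2 mock and 2 stress libraries entered the fit for the estimate of the spread and for the test of a difference between genotypes. The strain, sex, age, the length of restraint, the time from the last session to collection, and what the mock treatment was could not be read from the labels, nor could whether a library holds RNA of 1 animal or of several. Each library was treated as 1 replicate, so the spread between libraries may be partly technical.

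Restraint is a psychological stressor of rodents that activates the hypothalamic-pituitary-adrenal axis. Neurons of the hypothalamus release corticotropin-releasing hormone, the pituitary answers with corticotropin and the adrenal gland with corticosterone, which enters the brain and binds the mineralocorticoid receptor and the glucocorticoid receptor. The bound receptors are transcription factors that induce genes such as Fkbp5, itself a brake on the receptor, while neuronal activity switches on immediate early genes such as Fos within minutes.

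Restraint stress and mock treatment did not differ for any gene of the WT brains at an adjusted p under 0.05. Of 17182 genes tested, 0 passed (0%; edgeR quasi-likelihood test, Benjamini-Hochberg; smallest adjusted p = 1 after rounding), and DESeq2 also called 0 (0%; smallest adjusted p = 0.328). At an unadjusted p under 0.05 edgeR had 273 genes (1.59%), where 859 would be expected from that threshold alone. Without WT mock 1 the test called 1 of 17995 genes (0.00556%), the pseudogene Gm12411 with 356, 29, 259 and 303 counts in WT mock 1, WT mock 2, WT stress 1 and WT stress 2 (edgeR adjusted p = 0.0163). Without WT mock 2 it called 2, Th and Slc10a4 of monoamine and cholinergic neurons (25, 269, 239 and 301 counts, and 1, 129, 121 and 100), both low in the remaining mock library. The 273 genes divided into 150 higher (0.873%) and 123 lower (0.716%) under stress. The same test was also run on simulated counts with 200 changed genes, each with a mean count of at least 20. It recovered 40.3% of those changed 2-fold, 89.6% of those changed 4-fold and 98.5% of those changed 8-fold. Of its calls there 10.6% were false, a larger share than the 0.05 that the adjustment aims at. Recovery in the real libraries, which also differ in sex and in region markers, was not tested. The recovery rates may therefore be too high for them. The median standard error of a log2 fold change was 0.20 among the 11552 genes with a mean of at least 5 CPM (library-scaled counts, normalised by TMM). Values below therefore describe these 4 libraries, and "higher" and "lower" state where libraries lay, not a change that passed the test.

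The libraries of 1 treatment differed from each other as much as from those of the other treatment. Of the 11552 genes with a mean of at least 5 CPM, 6.55% differed by over 1.5-fold between the 2 mock libraries and 7.57% between the 2 stressed ones. Between treatments, WT mock 1 differed by that much from WT stress 1 in 7.84% and from WT stress 2 in 6.9% of genes, and WT mock 2 from WT stress 2 in 5.04%. WT mock 2 and WT stress 1 were the pair most alike, with 1.91% of genes over 1.5-fold apart (221 genes, of which 20 were over 2-fold). The bar plot of these pairs shows that belonging to the same treatment did not bring libraries closer.

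**Figure D1:**
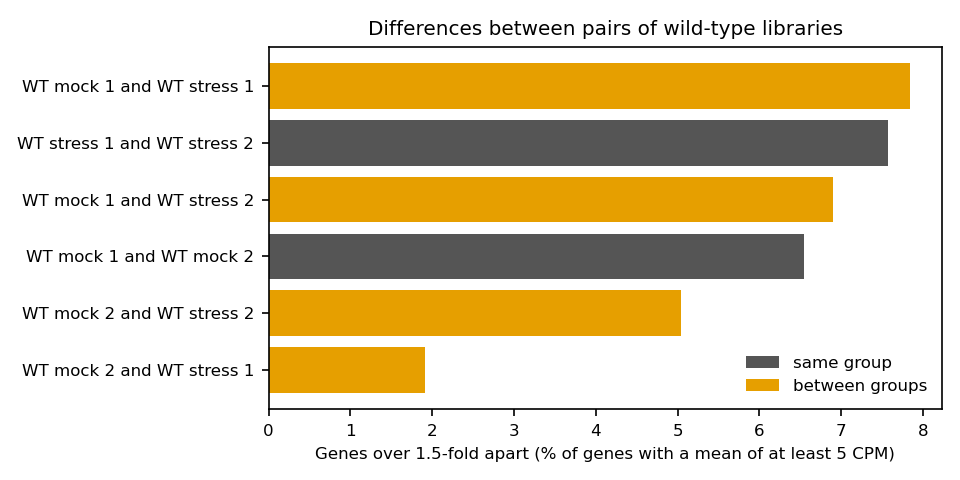
Percentage of genes that differ by over 1.5-fold between each pair of wild-type libraries, among 11552 genes with a mean of at least 5 CPM. Grey bars are pairs of 1 treatment (6.55% and 7.57%), orange bars pairs of a mock and a stressed library, and the lowest bar (1.91%) joins WT mock 2 and WT stress 1.

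WT mock 1, WT stress 1 and WT stress 2 stood apart, each in its own way, and values without them are given beside many of the results below. WT mock 1 had 4575 counts of Xist, the RNA that coats the inactive X chromosome of females, and 0 of Y-linked genes such as Ddx3y and Eif2s3y, while the other 3 libraries had 3 to 24 counts of Xist and 2667 to 2833 Y-linked counts. The same library was low in markers of several regions. The summed level of 14 striatal markers was 309 CPM in WT mock 1 against 1629.9, 1698 and 1147 CPM in WT mock 2, WT stress 1 and WT stress 2, and that of 16 hypothalamic markers was 13.1 CPM against 85.6, 70.5 and 75.3 CPM. WT stress 2 was high in choroid plexus markers, with a summed 1011 CPM against 202 to 272 CPM, and WT stress 1 in red cell genes, with 119 CPM against 7.47 to 10.9 CPM. Totals were 17947463 to 18894657 counts per library, and mitochondrial genes took 8.29% to 9.74% of them.

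**Figure D2:**
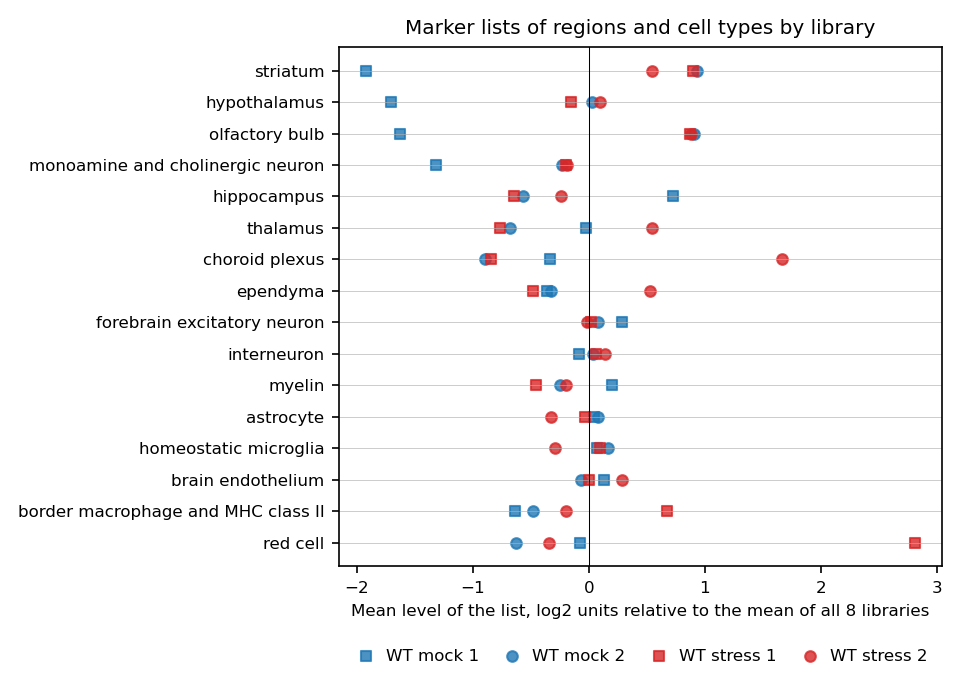
Mean level of 16 marker lists in each wild-type library, in log2 units relative to the mean of all 8 libraries of the series. WT mock 1 lies alone at the left for striatum (-1.92), hypothalamus (-1.71) and olfactory bulb (-1.63), WT stress 2 alone at the right for choroid plexus (1.67), and WT stress 1 for red cell genes (2.81).

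Genes of border macrophages and MHC class II lay higher in the stressed libraries. Of the 11 genes of the list 10 passed the filter on low counts, and all 10 were higher under stress (median log2 fold change 1.29, against 0.00 over all genes tested). In 7 of the 10 both stressed libraries lay above both mock libraries, which was the case for 13.2% of all genes tested, and 5 had an unadjusted p under 0.05, against 0.873% of all genes on the higher side. This list and those below were chosen with earlier results of these data known, and members of a list were read in the same libraries. Shares of a list set beside those of all genes are therefore a description, not a test. MHC class II molecules present peptides to helper T cells and in the brain mark macrophages of the meninges and perivascular spaces and activated microglia. Cd74, their invariant chain, which chaperones them to the endosome, lay at 1.56 CPM in WT mock 1, 2.30 in WT mock 2, 7.72 in WT stress 1 and 4.08 in WT stress 2 (log2 fold change 1.61 ± 0.43, SE; edgeR unadjusted p = 0.00313). Its stressed libraries lay apart from the mock libraries and from each other.

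The genes of the class II chains themselves followed the same order of libraries, and the promoters of H2-Aa and H2-Eb1 are printed here because their transcripts, with those of H2-Ab1 and Cd74, lay highest in the same library. Capitals mark the letters CTGATTGG, the core of the Y box, an element known from class II promoters that is bound by the factor NF-Y. Both strands were searched, and 4.1% of 32851 RefSeq promoters of this length hold it. Of these 4 genes H2-Aa and H2-Eb1 were matched in the promoter table (GRCm38.p6, the mm10 assembly). Each window is 300 bases, from 250 bases before to 50 after the start of the gene, and the motif takes bases 200 to 207 of the first and 189 to 196 of the second. A match describes the sequence and is no evidence of binding.
H2-Aa (chr17:34287774-34288073, minus strand): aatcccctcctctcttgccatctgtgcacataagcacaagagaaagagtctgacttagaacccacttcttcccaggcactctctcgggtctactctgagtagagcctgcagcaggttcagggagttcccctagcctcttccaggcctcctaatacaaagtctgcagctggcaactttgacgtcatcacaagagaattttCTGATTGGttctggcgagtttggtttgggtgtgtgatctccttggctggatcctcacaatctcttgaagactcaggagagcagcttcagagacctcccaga
H2-Eb1 (chr17:34305617-34305916, plus strand): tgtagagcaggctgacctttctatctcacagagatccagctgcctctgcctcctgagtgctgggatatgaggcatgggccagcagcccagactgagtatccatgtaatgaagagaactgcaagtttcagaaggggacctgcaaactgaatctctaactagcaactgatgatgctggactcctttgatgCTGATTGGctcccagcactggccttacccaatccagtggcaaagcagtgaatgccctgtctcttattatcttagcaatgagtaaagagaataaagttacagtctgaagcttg

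H2-Aa, an alpha chain, had 5 and 12 counts in WT mock 1 and 2, 67 in WT stress 1 and 19 in WT stress 2 (log2 fold change 2.31 ± 0.77, SE). H2-Ab1, the beta chain that pairs with it, had 13, 13, 45 and 21 counts in the same order (1.33 ± 0.50). H2-Eb1, another beta chain, had 4, 21, 68 and 26 (1.89 ± 0.68). In all 3 the step from WT mock 2 to WT stress 2 was small and the highest library was WT stress 1. Without WT stress 1 their log2 fold changes were 1.14, 0.69 and 1.04, that of Cd74 was 1.08, and the median of the list was 0.73; without WT mock 1 the median was 1.21 and H2-Eb1 lay at 1.12. Of the macrophage markers, the hemoglobin scavenger receptor Cd163 had 34 and 40 counts under mock and 76 and 63 under stress (0.90 ± 0.35, SE), and the mannose receptor Mrc1 42 and 26 against 75 and 50 (0.88 ± 0.45, and 0.56 without WT stress 1). Cd163 differed little between the 2 stressed libraries. The receptor Lyve1 (31, 13, 37 and 10 counts) and the chemokine Pf4 (11, 4, 30 and 6) overlapped between treatments. In bulk RNA more cells of a type and more RNA per cell cannot be told apart.

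The chemokine genes Ccl2, Ccl7, Cxcl1 and Cxcl2, which recruit monocytes and neutrophils, were near 0 in mock brains and highest in WT stress 1. Of the 17 genes of leukocyte recruitment 9 passed the filter, 4 of them with an unadjusted p under 0.05 and all 4 higher under stress (0.873% of all genes tested), while the median of the 9 was 0.00. Ccl2 and Ccl7 had 0 to 4 counts in every mock and CAA library, so they passed the filter only through the WT stress libraries. The filter thus favoured genes high under stress, and the 4 of 9 cannot be weighed against the share of all genes. Ccl2, which attracts monocytes, had 2 and 3 counts in the mock libraries, 75 in WT stress 1 and 11 in WT stress 2 (log2 fold change 4.03 ± 1.10, SE; edgeR unadjusted p = 0.00384). Ccl7, its neighbour on chromosome 11, had 0, 2, 58 and 13 (4.98 ± 1.20; edgeR unadjusted p = 0.00155). Both stressed libraries lay above both mock libraries for the pair, WT stress 1 by far the most. Without WT stress 1 the log2 fold changes were 2.08 and 3.54. Ccl2 lies at 82035571 to 82037453 and Ccl7 at 82045712 to 82047525 on the plus strand (mm10). The adhesion molecule gene Icam1, to which leukocytes bind on activated endothelium, had 34, 20, 94 and 38 counts (1.29 ± 0.48, and 0.50 without WT stress 1), whereas the neutrophil chemokine gene Cxcl5 was highest in WT stress 2 with 11, 6, 15 and 35 (1.55 ± 0.67, and 0.81 without WT stress 2). Of the abundant chemokines of resting brain, Cx3cl1 of neurons had 10555, 9513, 10725 and 8278 counts, and Cxcl12 had 859, 692, 701 and 528. Cx3cl1 was thus also highest in WT stress 1, by a small step, and both genes were lowest in WT stress 2. Cxcl1, which did not pass the filter, had 0 and 5 counts in mock and 90 and 7 under stress, and Cxcl2 had 28 in WT stress 1 and 0 in each of the other 3. The endothelial selectins Sele and Selp had 3 and 7 counts in WT stress 1 and at most 1 elsewhere. Vcam1 (549, 502, 557 and 475 counts), Pecam1 and Icam2 of endothelium did not separate the treatments. Without the filter on low counts, which changes the genes entering the estimate of the spread, edgeR called 11 genes, among them Ccl2 (adjusted p = 0.0166), Ccl7 (adjusted p = 0.0152) and Cxcl1 (adjusted p = 0.013).

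Red cell genes moved with these chemokines in the same library. Hba-a1, an alpha-globin gene, had 65, 46, 833 and 94 counts in WT mock 1, WT mock 2, WT stress 1 and WT stress 2, Hbb-bs, a beta-globin gene, 96, 67, 1020 and 83, and Alas2, the heme synthesis enzyme of erythroid cells, 8, 3, 84 and 4. Without WT stress 1 the median log2 fold change of the 4 tested red cell genes went from 2.86 to -0.20. The 2 alpha-globin genes are near-identical copies, so their counts can be split between them. Socs3, the feedback inhibitor of cytokine signalling through STAT3, was named after its values were seen. It lay at 2.47 and 2.08 CPM in mock against 5.04 and 5.18 under stress (log2 fold change 1.16 ± 0.35, SE), alike in both stressed libraries. Whether blood left in the vessels has a part in the immune values was not tested.

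**Figure D3:**
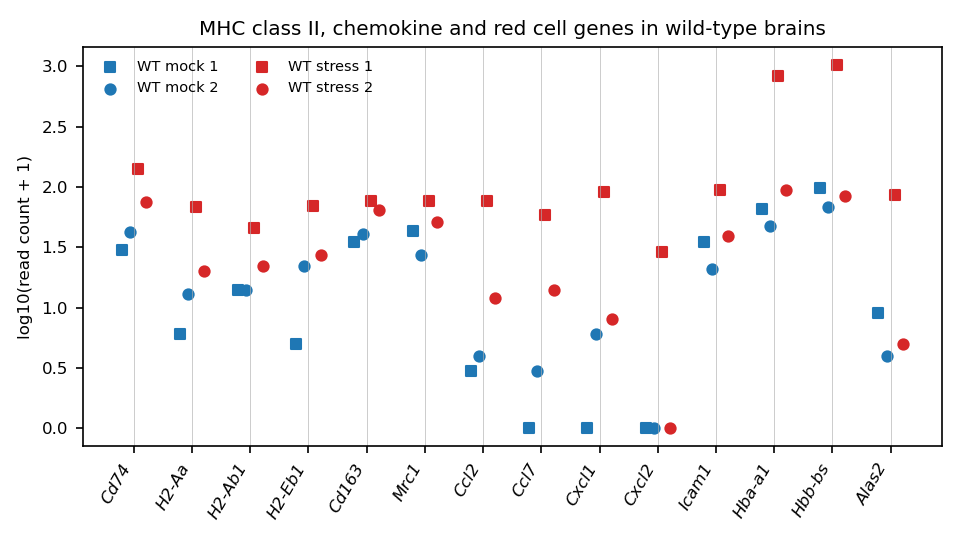
Read counts of 14 MHC class II, macrophage, chemokine, adhesion and red cell genes in the 4 wild-type libraries, as log10(count + 1). WT stress 1 (red squares) is the highest point for every gene shown, from 28 counts of Cxcl2 to 1020 of Hbb-bs, and WT stress 2 (red circles) lies between it and the mock libraries for Cd74, Ccl2 and Ccl7. The genes were picked by hand, and the chemokine gene Cxcl5, highest in WT stress 2, is not shown.

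Neutrophil genes, of interest because the study concerns neutrophil extracellular traps, were mostly at or near 0 counts. Of 17 genes of neutrophil granules, receptors and extracellular traps 6 passed the filter. Ctsg, Ly6g and Cxcr2 had 0 counts in every WT library, Mpo, the myeloperoxidase of the granules, had 2 and 5 in mock and 0 and 0 under stress, and Padi4, the enzyme that citrullinates histones in trap formation, 2 and 0 against 0 and 0. A count of 0 allows up to 3 counts per library, so lower levels were not detectable. S100a8, a calgranulin, had 10 and 2 counts in mock and 13 and 5 under stress, and its partner S100a9 5 and 9 against 10 and 11. Prtn3, a granule protease, had 13 and 17 against 21 and 24 (log2 fold change 0.58 ± 0.52). Its locus overlaps the better expressed Plppr3 on the other strand by 159 bases, so its few counts are uncertain. Better expressed were Csf3r, the receptor of granulocyte colony-stimulating factor, with 104, 71, 97 and 82 counts, and the matrix protease gene Mmp9 with 34, 20, 29 and 12, both overlapping between treatments. Padi2, a deiminase that oligodendrocytes express, had 834, 458, 292 and 441 counts (log2 fold change -0.81 ± 0.34, and -0.35 without WT mock 1).

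Genes induced by glucocorticoids lay slightly above the mock level. Of 26 such genes 19 had a positive log2 fold change (median 0.24; 16 of 26 and median 0.17 without WT mock 1), in 7 both stressed libraries lay above both mock libraries and in 1 below, where 13.2% and 13.5% of all genes did so, and 2 had an unadjusted p under 0.05, in opposite directions. Fkbp5 lay at 34.5 CPM in WT mock 1, 49.0 in WT mock 2, 56.0 in WT stress 1 and 53.7 in WT stress 2 (log2 fold change 0.39 ± 0.20, SE; 95% confidence interval -0.04 to 0.83). Its treatments did not overlap, but WT mock 2 lay closer to the stressed libraries than to WT mock 1, and without WT mock 1 the log2 fold change was 0.16. Sgk1, a kinase that regulates sodium channels, lay at 147, 155, 162 and 197 CPM (0.25 ± 0.21, and 0.10 without WT stress 2). Angptl4, an inhibitor of lipoprotein lipase, lay at 2.85, 4.77, 7.44 and 6.28 CPM (0.85 ± 0.30; edgeR unadjusted p = 0.0166), and 0.52 without WT mock 1. Tsc22d3, the glucocorticoid-induced leucine zipper, lay at 108, 169, 162 and 93.2 CPM (-0.12 ± 0.42; 95% confidence interval -1.13 to 0.89), with its lowest level in a stressed library. Zbtb16, a zinc finger repressor, was lower under stress at 37.0, 21.9, 20.4 and 18.0 CPM (-0.62 ± 0.26), most of it from WT mock 1, without which the value was -0.19.

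The receptors that read corticosterone differed little. Nr3c1, the glucocorticoid receptor, lay at 135, 108, 110 and 113 CPM in WT mock 1, WT mock 2, WT stress 1 and WT stress 2 (log2 fold change -0.12 ± 0.16; 95% confidence interval -0.48 to 0.23), and Nr3c2, the mineralocorticoid receptor, at 57.6, 43.1, 44.7 and 43.4 CPM (-0.19 ± 0.17; -0.57 to 0.19). WT mock 1 was the highest library for both, and without it the values were 0.05 and 0.03. The 11 genes of receptors and their chaperones had a median of 0.00. Hsd11b1, which regenerates active glucocorticoid inside cells, lay at 29.0, 16.5, 12.4 and 8.82 CPM (-1.10 ± 0.47, and -0.64 without WT mock 1), below mock in both stressed libraries. Its locus overlaps Lamb3 on the other strand.

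Crhr1, the main receptor of corticotropin-releasing hormone in the forebrain, was among the genes with the smallest p. It lay at 28.6 CPM in WT mock 1, 23.5 in WT mock 2, 16.5 in WT stress 1 and 16.1 in WT stress 2. The stressed libraries were alike and both lay below both mock libraries (log2 fold change -0.68 ± 0.19, SE; 95% confidence interval -1.10 to -0.25; edgeR unadjusted p = 0.00484, adjusted p = 1), and without WT mock 1 the value was -0.53. Crhr1 (ENSMUSG00000018634) lies on chromosome 11 from 104132855 to 104175523, plus strand (mm10). Its ligand gene Crh lay at 4.84, 8.59, 10.2 and 6.23 CPM, with overlapping treatments, and the binding protein gene Crhbp and the second receptor gene Crhr2 overlapped too (log2 fold changes -0.16 and 0.00). Ucn, another ligand of these receptors, had 2 and 11 counts in mock and 0 and 0 under stress. Oxtr, the oxytocin receptor, had 94 and 109 counts in mock and 231 and 134 under stress (0.84 ± 0.44, and 0.40 without WT stress 1). Avp and Oxt, hormones of hypothalamic neurons, had 3 and 0 counts in WT mock 1 against 113 to 479 in the other 3 libraries. Of the 12 genes of this system 10 were tested, 5 lay above and 5 below 0, and the median was 0.00.

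Adrenergic and serotonin receptors, through which noradrenaline and serotonin act in stress, showed no common direction. The alpha-2A receptor gene Adra2a lay at 12.5, 19.3, 22.6 and 25.1 CPM (log2 fold change 0.58 ± 0.27, and 0.30 without WT mock 1), and the beta-1 receptor gene Adrb1 at 21.9, 18.97, 14.5 and 14.99 CPM (-0.47 ± 0.21). The treatments did not overlap in either, in opposite directions. The 9 adrenergic genes had a median of -0.06 (-0.22 without WT mock 1 and -0.34 without WT stress 2), and the 12 tested serotonin receptor genes one of 0.20 (0.06 without WT mock 1). Htr2c, a receptor abundant in the choroid plexus and in neurons, lay at 43.5, 65.2, 84.7 and 70.7 CPM (0.52 ± 0.23, and 0.25 without WT mock 1), and Htr4 at 2.15, 1.96, 4.11 and 3.03 CPM (0.79 ± 0.37).

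Immediate early genes did not move as a group. Of 22 genes 11 lay above 0 (median -0.04; 16 of 22 and median 0.07 without WT mock 1). Fos, a subunit of the AP-1 factor, lay at 12.4 and 10.4 CPM in mock and 13.2 and 19.7 under stress (log2 fold change 0.52 ± 0.26, and 0.21 without WT stress 2), and Maff, a small Maf factor, at 5.54 and 3.37 against 8.59 and 7.22 (0.83 ± 0.37). Npas4, which neurons induce upon calcium entry, lay at 3.77, 2.47, 2.74 and 8.32 CPM and Arc, a regulator of synaptic strength, at 44.8, 41.5, 28.7 and 58.0 CPM, so that for both WT stress 2 was the highest library and WT stress 1 lay within or below the mock range. Bdnf, a neurotrophin often followed in stress studies, lay at 34.6, 28.9, 30.5 and 19.8 CPM (-0.34 ± 0.28; 95% confidence interval -0.96 to 0.28), and -0.06 without WT stress 2. Its treatments overlapped.

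Clock genes lay mostly below mock, through WT mock 1. Of 18 genes 13 lay below 0 (median -0.14, and -0.01 without WT mock 1). Dbp, an output factor of the clock with a strong daily rhythm, lay at 87.6 CPM in WT mock 1 against 39.4 in WT mock 2, 31.1 in WT stress 1 and 37.3 in WT stress 2 (log2 fold change -0.89 ± 0.39, and -0.21 without WT mock 1). Per2, a core repressor, lay at 25.1, 20.2, 17.7 and 17.4 CPM (-0.37 ± 0.20, and -0.20 without WT mock 1). The time of collection is not given, so its part cannot be told apart from treatment.

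Beside the gene lists, genes were ranked by p among those with a mean of at least 1 CPM and treatments that did not overlap. Clone-style symbols, such as Gm plus digits, were left out of this ranking. Gm10076, left out for that reason, had a smaller p (edgeR unadjusted p = 0.000742) than the 5 higher genes named here. The first 5 in each direction were, higher under stress, Entpd4b, Ccl7, Mtcp1, Cd74 and Abca4, and lower under stress Tst, Crhr1, Thbs4, Itgal and Zfp652os. Entpd4b (chromosome 14, 69555424 to 69585520), a nucleotidase gene, lay at 1.72, 1.63, 5.58 and 10.7 CPM (log2 fold change 2.28 ± 0.52), without overlap. It has a near-identical neighbour, Entpd4, so reads of the 2 copies may be split in counting and its value is uncertain. Abca4, a retinoid transporter that the choroid plexus also expresses, lay at 0.753, 1.63, 2.74 and 7.06 CPM (2.04 ± 0.55, and 1.20 without WT stress 2), highest in the library rich in choroid plexus markers; its part in that was not tested. Mtcp1 lay at 0.807, 0.786, 3.39 and 2.48 CPM (1.87 ± 0.48) and shares 6141 bases with Cmc4 on the same strand, which leaves its reads hard to assign. Without the filter on low counts Entpd4b (adjusted p = 3.65e-04) and Abca4 (adjusted p = 0.0245) were also called.

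Tst, the mitochondrial thiosulfate sulfurtransferase that detoxifies cyanide and sulfide, had the smallest p among the genes lower under stress in that ranking. It lay at 45.4 and 42.1 CPM in mock against 27.9 and 26.2 CPM under stress (43.7 ± 2.30 and 27.0 ± 1.15, SD, n = 2 each; log2 fold change -0.69 ± 0.19, SE; edgeR unadjusted p = 0.00349, adjusted p = 1). The replicates of each treatment were close together and leaving out each of the 4 WT libraries in turn gave log2 fold changes from -0.75 to -0.64. Tst (ENSMUSG00000044986) lies on chromosome 15 from 78399556 to 78405907, minus strand. Thbs4, a matrix glycoprotein that astrocytes secrete after injury, lay at 10.5, 5.78, 3.45 and 2.81 CPM (-1.38 ± 0.40, and -0.89 without WT mock 1). Itgal, the alpha chain of the leukocyte integrin LFA-1, lay at 2.10, 1.40, 0.274 and 0.551 CPM (-2.07 ± 0.63), lower under stress while its ligand gene Icam1 was higher. Zfp652os, an antisense RNA, lay at 2.53, 2.69, 0.766 and 1.21 CPM (-1.39 ± 0.43) and overlaps Zfp652 by 82 bases.

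Several moderately expressed genes separated the treatments with little spread within them. Cp, which encodes the ferroxidase ceruloplasmin of astrocytes and choroid plexus, lay at 12.4 and 12.5 CPM in mock and at 20.1 and 19.7 CPM under stress (log2 fold change 0.67 ± 0.30, SE). It overlaps Hps3 on the other strand. Hey2, a Notch target of vessels and progenitors, lay at 3.28 and 3.76 against 6.62 and 6.83 CPM (0.93 ± 0.28), and Gtf2ird1, a factor deleted in Williams syndrome, at 16.5 and 15.9 against 23.2 and 27.1 CPM (0.63 ± 0.19). Klf11, a Krüppel-like factor, lay at 5.22, 5.84, 8.16 and 8.49 CPM, and Fbxl12, of a ubiquitin ligase, at 4.25, 4.04, 6.73 and 6.50 CPM. In each of these 5 genes the gap between treatments was wider than the distance between replicates of mock. The pseudogenes Rpl30-ps10 (1.94, 4.38, 9.25 and 8.93 CPM) and Gm12191 (2.53, 5.28, 10.7 and 10.7 CPM), the noncoding Gm10076 (3.50, 3.93, 14.3 and 7.55 CPM), Omp, the marker of olfactory sensory neurons (0.161, 6.90, 11.4 and 10.9 CPM), and Hba-a1 complete the 10 genes with the widest gap on the higher side. For Omp WT mock 1 was near 0, and without it the log2 fold change went from 1.66 to 0.69. Pseudogenes share sequence with their parent genes, so their counts are uncertain.

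On the lower side the 10 widest gaps belonged to Xist, Thbs4, Slc14a1, Tradd, Tst, Dctd, Zbed5, Crhr1, Slc13a5 and CAAA01118383.1, an unnamed locus. For Xist the gap lay between WT mock 2 (24 counts) and WT stress 2 (4 counts), both of which had Y-linked counts. The 4575 counts of WT mock 1 do not enter that gap. Slc14a1, a urea transporter of astrocytes, lay at 15.5 and 12.9 CPM in mock and 7.72 and 7.17 CPM under stress (log2 fold change -0.93 ± 0.32, and -0.80 without WT mock 1). Slc13a5, the plasma membrane citrate transporter, lay at 14.5 and 14.5 against 10.3 and 9.37 CPM (-0.56 ± 0.20). Tradd, the adaptor of the TNF receptor, lay at 6.35, 6.399, 3.89 and 4.19 CPM, Dctd, a deaminase of nucleotide synthesis, at 6.72, 7.41, 4.598 and 4.35 CPM, and Zbed5 at 14.7, 16.95, 10.3 and 9.26 CPM. Omp, Fbxl12, Gm12191 and Zbed5 each overlap another gene, as do Irf7, Dbp, Padi2 and Slc7a10, and whether counting used strand is not given. Since genes were ranked by this gap, their separation is a description of the ranking, and over all genes 13.2% were separated on the higher and 13.5% on the lower side.

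**Figure D4:**
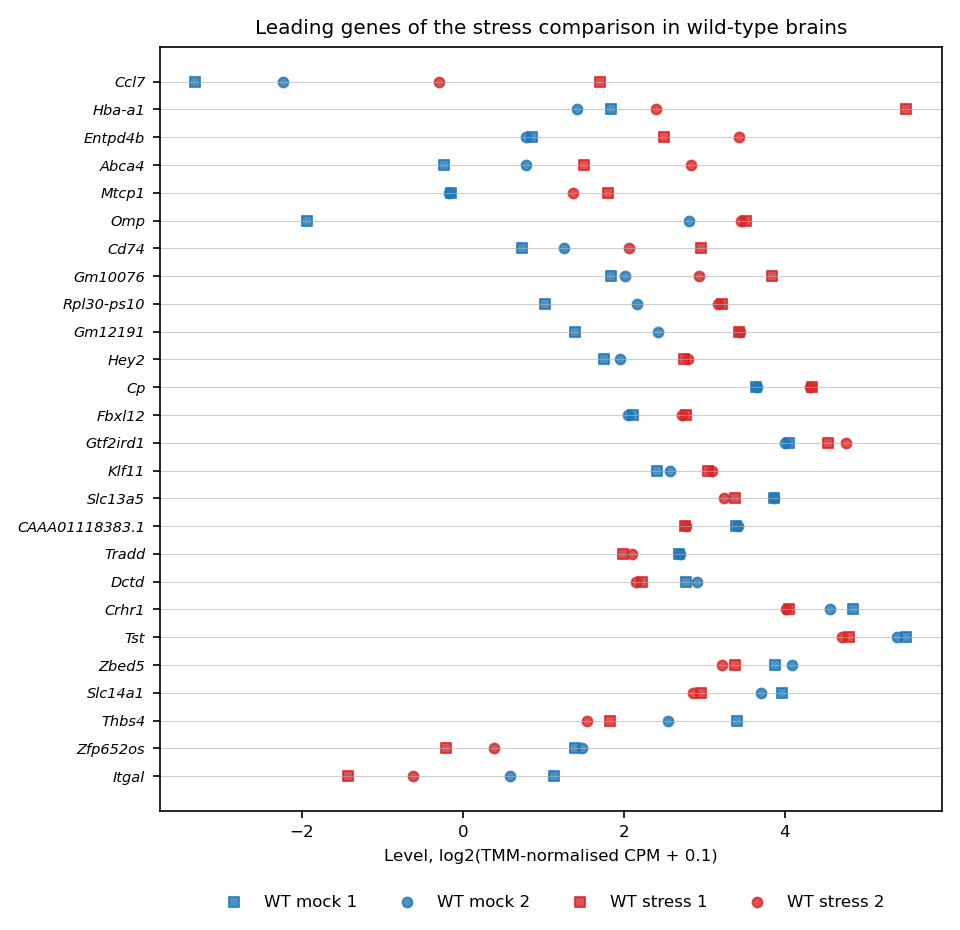
Level of 26 leading genes in the 4 wild-type libraries, as log2(CPM + 0.1), ordered by log2 fold change. Mock libraries are blue and stressed ones red, squares are replicate 1 and circles replicate 2; for Cp and CAAA01118383.1 the replicates of a treatment nearly coincide, while Ccl7, Hba-a1 and Omp spread widely.

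Genes of resting microglia and of astrocytes lay slightly below mock, chiefly through WT stress 2. Of 14 homeostatic microglial genes 13 had a negative log2 fold change (median -0.24), and 2 of 14 were separated, a share near the 13.5% of all genes; without WT stress 2 the median was -0.01. Csf1r, the survival receptor of microglia, lay at 88.2, 107, 94.1 and 64.7 CPM and Olfml3 at 24.2, 28.3, 23.8 and 15.9 CPM, so that WT stress 1 was like mock. The 22 genes that microglia raise around amyloid had a median of 0.03. Of 12 astrocyte genes 10 lay below 0 (median -0.18, and -0.05 without WT stress 2), 5 of them with both stressed libraries below both mock libraries (13.5% of all genes tested). Among these was Slc7a10, a serine transporter, at 30.5, 25.5, 20.6 and 12.8 CPM (log2 fold change -0.74 ± 0.32, and -0.44 without WT stress 2). Gfap, the filament of reactive astrocytes, lay at 323, 197, 162 and 189 CPM (-0.57 ± 0.30, and -0.17 without WT mock 1). Of the 13 tested reactive astrocyte genes 11 lay above 0 (median 0.23), and Gfap and Serpina3n did not.

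Interferon and complement genes gave small medians of -0.14 and 0.24. The interferon median was 0.00 without WT mock 1 and -0.02 without WT stress 2, and the complement median was 0.03 without WT stress 1. Irf7, a master factor of the interferon response, lay at 2.91, 1.80, 0.821 and 0.937 CPM, lower in both stressed libraries (log2 fold change -1.41 ± 0.53), and Isg15 overlapped between treatments. Of the complement genes the anaphylatoxin receptor C3ar1 lay at 2.69, 2.19, 4.65 and 2.87 CPM (0.62 ± 0.37, and 0.23 without WT stress 1).

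Vascular genes lay at or slightly above mock. Of 15 endothelial genes 11 had a positive log2 fold change (median 0.06, and -0.09 without WT stress 2), of 14 pericyte and smooth muscle genes 10 (median 0.24), and of 16 fibroblast and matrix genes 11 (median 0.24). Slc2a1, the glucose transporter of the blood-brain barrier, lay at 85.8, 103, 107 and 136 CPM, and Acta2, smooth muscle actin, at 15.2, 15.7, 19.98 and 22.8 CPM (0.47 ± 0.28). Both separated the treatments, Slc2a1 by a narrow gap.

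Myelin genes lay below mock, with WT mock 1 the highest library. Of 15 genes 14 had a negative log2 fold change (median -0.32), 6 with both stressed libraries below both mock libraries (13.5% of all genes tested), and without WT mock 1 the median was -0.10. Opalin lay at 26.6, 18.5, 17.6 and 14.3 CPM, and Ugt8a, which makes galactolipids of myelin, at 83.7, 56.0, 48.5 and 54.4 CPM. Summed over the list the 4 libraries held 10135, 7884, 6382 and 9205 CPM in the order WT mock 1, WT mock 2, WT stress 1, WT stress 2, so the stressed libraries lay on both sides of WT mock 2. Of 11 genes of oligodendrocyte precursors 9 lay below 0 (median -0.16).

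Regional markers followed individual libraries. Forebrain excitatory neuron genes had a median of -0.22 (-0.09 without WT mock 1). Gad1 and Gad2, which make GABA, lay at 301, 404, 392 and 536 and at 163, 289, 297 and 323 CPM, in both cases lowest in WT mock 1. The 20 synaptic genes had a median of 0.02. All 14 striatal markers lay above 0 (median 0.58), but 2 of 14 did so without WT mock 1 (median -0.17). Hypothalamic markers went from a median of 0.70 to -0.02 and olfactory bulb markers from 0.78 to -0.02 with the same omission. Hippocampal markers, which were highest in WT mock 1, went from -0.69 to 0.17. All 15 tested choroid plexus markers lay above 0 (median 1.96), and without WT stress 2 the median was -0.79. Ttr, transthyretin, the defining transcript of that epithelium, had 685, 59, 163 and 8139 counts. The labelled tissue was plain in every library, since the astrocyte list summed to 5893 to 7668 CPM and the myelin list to 6382 CPM or more, while the share of each region differed. Pituitary markers, of which 1 of 9 passed the filter, summed to 0.657 to 1.60 CPM.

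**Figure D5:**
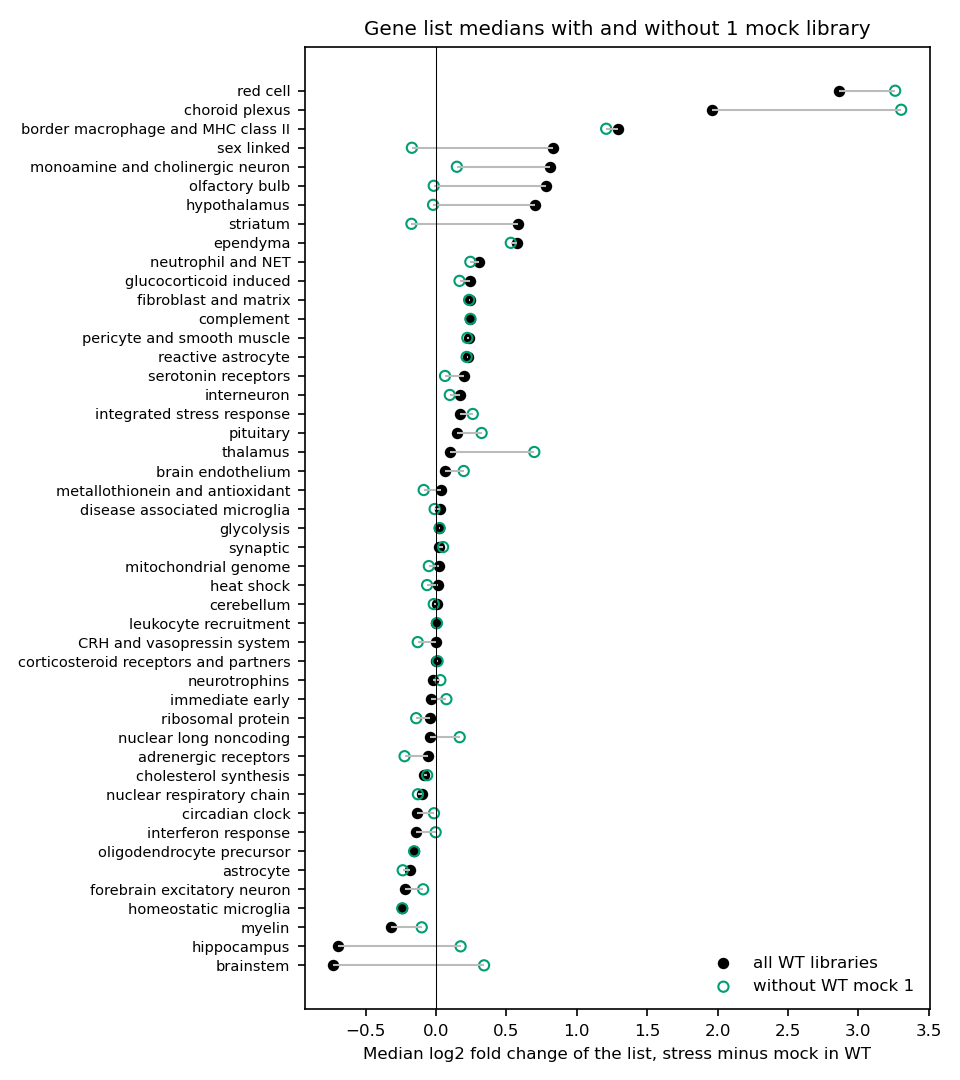
Median log2 fold change (stress minus mock in WT) of each of the 47 gene lists, with all 4 wild-type libraries (black) and without WT mock 1 (green circles). Striatum (0.58 to -0.17), hippocampus (-0.69 to 0.17) and brainstem (-0.73 to 0.34) cross 0, whereas border macrophage and MHC class II genes (1.29 to 1.21) stay in place. Of 12 brainstem genes only 4 were tested, and that list summed to 1.38 to 3.82 CPM per library. Without WT stress 1, which is not plotted, the median of border macrophage and MHC class II genes was 0.73.

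Genes of cellular stress and metabolism differed little. Of 13 genes of the integrated stress response, which the factor Atf4 carries out when translation is impaired, 11 lay above 0 (median 0.17, and 0.26 without WT mock 1), 5 of them with both stressed libraries above both mock libraries (13.2% of all genes tested). Trib3, a pseudokinase induced by Atf4, had 2 and 10 counts in mock and 21 and 29 under stress (log2 fold change 2.03 ± 0.71, and 1.28 without WT mock 1), and Sesn2, an inhibitor of mTORC1, lay at 10.4 and 10.8 CPM against 14.3 and 14.3 CPM (0.43 ± 0.21). Of 23 nuclear respiratory chain genes 18 lay below 0, 10 of them with both stressed libraries below both mock libraries (13.5% of all genes tested), by small amounts (median -0.10). Medians were 0.01 for heat shock, 0.03 for metallothionein and antioxidant, 0.02 for glycolysis, -0.09 for cholesterol synthesis, -0.04 for ribosomal protein and 0.02 for mitochondrial genome genes. Gapdh, a glycolytic enzyme often used for normalisation, lay at 102 CPM in WT mock 1 and at 2.13, 2.57 and 4.02 CPM in the other 3. It has many near-identical pseudogenes among which counting can split its reads, so these values are uncertain.

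Stress in WT was also set against stress in the brains with CAA, which share no libraries with it. The difference of the 2 log2 fold changes passed for 0 of 17182 genes (0%; edgeR adjusted p of at least 0.995), with 595 (3.46%) at an unadjusted p under 0.05, and DESeq2 called 4 (0.0233%). Without WT mock 2 edgeR called 1, Slc10a4. Xist, which follows the sex of 2 libraries, was 1 of those 4. The others were Fabp7, a fatty acid binding protein of glial progenitors (703 and 929 counts in WT mock, 1391 and 1052 in WT stress, 1152 and 1321 in CAA mock, 779 and 510 in CAA stress; DESeq2 adjusted p = 0.0355), the chemokine gene Ccl27a (149 and 52, 24 and 19, 2 and 18, 40 and 55; DESeq2 adjusted p = 0.0355) and the pseudogene Gm12191. In 757 genes (4.41%) both stressed libraries lay on the same side of both mock libraries in WT and in CAA, and in 779 (4.53%) on opposite sides. The border macrophage and MHC class II genes had a median of 0.28 for stress in CAA, the glucocorticoid-induced genes one of 0.08, and Crhr1 a log2 fold change of 0.26. The difference for Crhr1 was -0.94 ± 0.27 (SE; edgeR adjusted p = 0.995), so it was not shown to differ between genotypes.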

How the data were processed

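The members and gene lists were chosen with earlier results of these data known. The deposited counts are reads per gene. The submitters' processing notes name HISAT2 2.0.5, featureCounts 1.5.0-p3 and mm10, and neither an annotation release nor a strand setting. The deposited FPKM values divide those counts by library sizes equal to DESeq2's robust ones (ratio 1). All 8 libraries (4 groups of 2) were fitted in edgeR 4.0.16 (R 4.3.3) with filterByExpr (minimum count 10, total 15; 17182 of 54532 genes kept), TMM, 4 group means and the robust quasi-likelihood test, with Benjamini-Hochberg adjustment at 0.05. P-values measure the spread between these libraries, and with 2 against 2 an exact permutation p cannot go below 0.333. The 126 named genes include the 5 with the smallest p in each direction (mean of at least 1 CPM, libraries not overlapping). They also include the 10 with the widest gap each way (at least 5 CPM) and the 2 with the smallest p of each of 47 lists. A fixed set and the 5 with the smallest interaction p complete them. Clone-style symbols were left out of the smallest p and the interaction rules, but not of the widest gaps. Of 649 listed symbols 647 are in the table and 592 were tested. DESeq2 1.42.0, limma 3.58.1 on log2(FPKM + 1) and log2(FPKM + 0.1), no filter, other normalization, a sex term and omitted libraries were alternatives. The test was checked on simulated data with 200 changed genes, where 10.6% of calls were false, a larger share than the threshold of 0.05 aims at. Some of the named genes are not reported here.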

Additional observations from a re-analysis of the deposited data

Results flagged for a closer look

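For 17 of the 126 named genes both stressed libraries lay on one side of both mock libraries in WT and on the other side in CAA. Over all genes tested 779 (4.53%) did so. Many genes were named because their WT libraries did not overlap or their interaction p was small. That choice favoured the pattern, so the 17 cannot be read as an excess. The difference between the genotypes was tested for each as an interaction, and none passed (edgeR adjusted p of at least 0.995). On the log2 scale, stress in WT minus stress in CAA, the difference was 1.265 for Hey2, 2.46 for Rpl30-ps10, 2.714 for Gm12191, 1.927 for Gm10076, 1.598 for Fabp7, 1.357 for the serotonin receptor gene Htr4, 1.395 for C3ar1, 3.799 for the microglial lectin Clec7a and 1.006 for the mitochondrial transfer RNA mt-Tp. It was -0.937 for Crhr1, -1.635 for Zfp652os, -4.364 for Ccl27a, -1.745 for Dbp, -1.042 for Per2, -1.375 for the carbonic anhydrase Car7 and -0.6265 for the synaptic scaffold Shank1. For Xist it was -22.97, a value that depends on the prior count, since the CAA mock libraries had 0 counts and 1 library of each genotype was female by its counts.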

How the results depend on the processing

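No gene was called for stress in WT with DESeq2, DESeq2 size factors, a sex term, limma at either pseudocount or the WT libraries alone. Without the filter on low counts 11 genes were called, 8 higher and 3 lower, and 17 for the difference from CAA, for which DESeq2 called 4. The male libraries alone gave 1 call, higher, and the libraries not low in striatal markers 1, higher, plus 1 for the difference from CAA (Gapdh). Leaving out 1 library at a time gave 0 to 2 calls, 0 to 2 higher, and 0 to 1 for the difference from CAA. The replicate block gave 0 calls (229 genes at an unadjusted p under 0.05); the labels do not say that numbers pair libraries, and same-numbered WT libraries' deviations correlated at -0.188 over 11619 genes. Without WT mock 1, 15 of 47 list medians and 12 of 126 named genes changed sign. With WT mock 1 and WT stress 1 both omitted, or WT mock 1 and WT stress 2, chosen after seeing the data, 0 genes were called, the lone libraries being assumed to vary like the CAA groups. The causes of these changes were not tested. Depth limits genes of few counts, such as the chemokines.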

Other observations

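Several lists not described above held genes that lay apart. Tac2, the neurokinin B precursor, lay at 3.71, 5.73, 6.57 and 11.8 CPM in WT mock 1, WT mock 2, WT stress 1 and WT stress 2 (log2 fold change 0.96 ± 0.33, SE), and 0.48 without WT stress 2. Car8, a Purkinje cell gene, lay at 21.0, 21.3, 16.2 and 12.1 CPM (-0.58 ± 0.26). Neat1, the scaffold RNA of paraspeckles, lay at 27.5, 25.3, 21.6 and 10.6 CPM (-0.71 ± 0.37, and -0.29 without WT stress 2), whereas Miat overlapped between treatments. Ogn, osteoglycin of the meninges, lay at 15.3, 11.7, 23.3 and 19.3 CPM (0.66 ± 0.32). Aldoc, an astrocyte aldolase, lay at 1303, 1288, 1099 and 918 CPM (-0.36 ± 0.23). None passed the test across all genes (edgeR adjusted p = 1 after rounding).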
